A study of Rattus norvegicus with 23 samples.

Results

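The markers of macrophages and other leukocytes described here are 7 genes: Ptprc, Cd68, Cd163, Cd14, C1qa, C1qb and Cd74. They were chosen by name and identifier and not by their values, though with earlier results of these data known. They are 7 of 26405 genes in the count files, and all 7 were among the 11568 genes that passed the filter on low counts. RNA of the heart apex was sequenced in 23 Lewis rats, each giving 1 library, after a kidney transplantation that crossed the health of the donor with that of the recipient. The hearts were taken 6 weeks after transplantation, and the rats had been perfused with saline through the aorta. A group name gives the donor first and the recipient second, with C for chronic kidney disease (CKD) and H for healthy. CD-CR (n = 6) were CKD rats given the kidney of a CKD donor. HD-CR (n = 5) were CKD rats given a healthy kidney. CD-HR (n = 6) were healthy rats given the kidney of a CKD donor, and HD-HR (n = 6) were healthy rats given a healthy kidney.

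All 4 groups, HD-HR included, underwent surgery: a left kidney was grafted in its normal place, and the remaining right native kidney was taken out 10 to 14 days afterwards. Cold and warm ischemia of the graft lasted 30 min each. CKD had been produced by coagulating branches of the renal arteries, followed by the NO-synthase inhibitor L-NNA at 200 mg/L in the drinking water and 6% NaCl in the chow. Both were stopped at a proteinuria of 200 mg per 24 h, and a CKD rat entered the protocol at 100 mg per 24 h without them. Recipient CKD therefore includes ablation, L-NNA and salt, whose parts in a difference cannot be told apart. Lewis is an inbred strain, so the grafts were isografts. The sources used here do not give the age or sex of the rats.

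Macrophages are the main resident leukocytes of the heart, where they clear dead cells and debris, present antigen and take part in repair. Ptprc encodes CD45, a receptor tyrosine phosphatase carried by nearly all nucleated blood-derived cells. Cd68 encodes a lysosomal glycoprotein of macrophages, Cd163 their scavenger receptor for haemoglobin-haptoglobin complexes, and Cd14 the co-receptor that passes lipopolysaccharide to TLR4. C1qa and C1qb encode chains of C1q, the recognition unit of the classical complement pathway, made largely by macrophages. Cd74 encodes the invariant chain that accompanies MHC class II molecules and is made by antigen-presenting cells.

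The promoters of C1qa, C1qb and Cd68 are shown because the levels of these genes varied together across the hearts, as given further on. Each window holds 250 bases before the gene's start and 50 after it, 5′ to 3′, from RefSeq on assembly GRCr8, where all 7 genes were matched by symbol. Capitals mark GAGGAA, the core of a PU box as bound by the myeloid factor PU.1, and GGAAGT, an ETS core, on either strand (TTCCTC and ACTTCC where they lie on the other strand). Both were chosen with the promoters in view. The C1qa window is chr5:154419884-154420183, the C1qb window chr5:154407778-154408077 and the Cd68 window chr10:54882392-54882691, all on the minus strand.
C1qa: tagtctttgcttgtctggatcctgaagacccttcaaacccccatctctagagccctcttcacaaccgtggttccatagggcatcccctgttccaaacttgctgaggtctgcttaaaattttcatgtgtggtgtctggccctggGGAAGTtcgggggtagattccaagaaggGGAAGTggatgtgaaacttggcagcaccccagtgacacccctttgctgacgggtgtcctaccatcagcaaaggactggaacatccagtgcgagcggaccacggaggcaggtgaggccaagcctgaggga
C1qb: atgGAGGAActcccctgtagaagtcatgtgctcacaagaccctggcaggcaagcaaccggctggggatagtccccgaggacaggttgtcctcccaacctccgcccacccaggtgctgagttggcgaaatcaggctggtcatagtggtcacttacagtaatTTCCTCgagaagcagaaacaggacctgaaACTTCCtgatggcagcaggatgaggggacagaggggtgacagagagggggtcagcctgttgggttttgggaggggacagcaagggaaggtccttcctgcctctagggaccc
Cd68: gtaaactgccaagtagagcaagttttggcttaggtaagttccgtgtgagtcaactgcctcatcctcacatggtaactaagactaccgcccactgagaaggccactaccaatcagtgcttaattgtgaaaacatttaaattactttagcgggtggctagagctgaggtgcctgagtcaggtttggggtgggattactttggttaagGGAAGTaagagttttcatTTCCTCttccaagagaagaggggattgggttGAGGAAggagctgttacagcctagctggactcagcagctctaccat
The C1qa window held GGAAGT at 2 places and GAGGAA at 0. The C1qb and Cd68 windows each held GAGGAA at 2 places and GGAAGT at 1. Of the 7 windows, 5 held GAGGAA, against 27.6% of 33469 rat promoter windows, and 4 held GGAAGT, against 22.6%. The motifs can overlap each other, and neither was found in the Cd163 window. A match describes the letters of the window only. C1qa and C1qb are neighbours on chromosome 5 in that assembly, with 1 gene, C1qc, between them.

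The hearts gave 7391929 to 12444980 counts in genes per library, so that 1 count was worth 0.0734 to 0.166 CPM, that is, counts scaled to a common library size. Levels below are TMM-scaled CPM, and are compared between samples of 1 gene, not between genes, since transcript lengths were not used. The 10 most abundant genes took 48.8 to 68.6% of the counts of a library. One library, CD-CR1 (replicate 1 of CD-CR), stood apart by its correlation with its own group, with a median r of 0.938. It also had the smallest share of counts in the 10 most abundant genes (48.8%), and values that moved most without it are given both ways below. The deposited animal names begin with 12 or 13, a prefix whose meaning the sources used here do not give. All 12 healthy recipients carry 13, while 9 CKD recipients carry 12 and 2 (CD-CR5 and HD-CR5) carry 13. The files give identifiers without names, so markers of cardiomyocytes and of other cell types could not be checked, and lists of further macrophage, complement, MHC class II and lymphocyte genes could not be tested.

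None of the 7 markers differed between the groups at an adjusted p under 0.05 in any of 9 comparisons with edgeR's quasi-likelihood test. The ranges of the groups compared overlapped for each of the 7. The share of all genes with such an overlap was not computed. C1qa, C1qb and Cd68 had the largest differences between recipients, with higher mean levels in CKD recipients (log2 fold changes of 0.48 to 0.68). These values lay between 0.25 and 0.38 without CD-CR1, and between -0.24 and 0.04 with the animal-name prefix in the fit. With the prefix the recipient calls over all genes also fell, from 1483 to 6. Cd14 had a lower mean level in recipients of CKD kidneys. In bulk tissue a difference in the number of cells and in the RNA made per cell cannot be told apart.

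**Figure D1:**
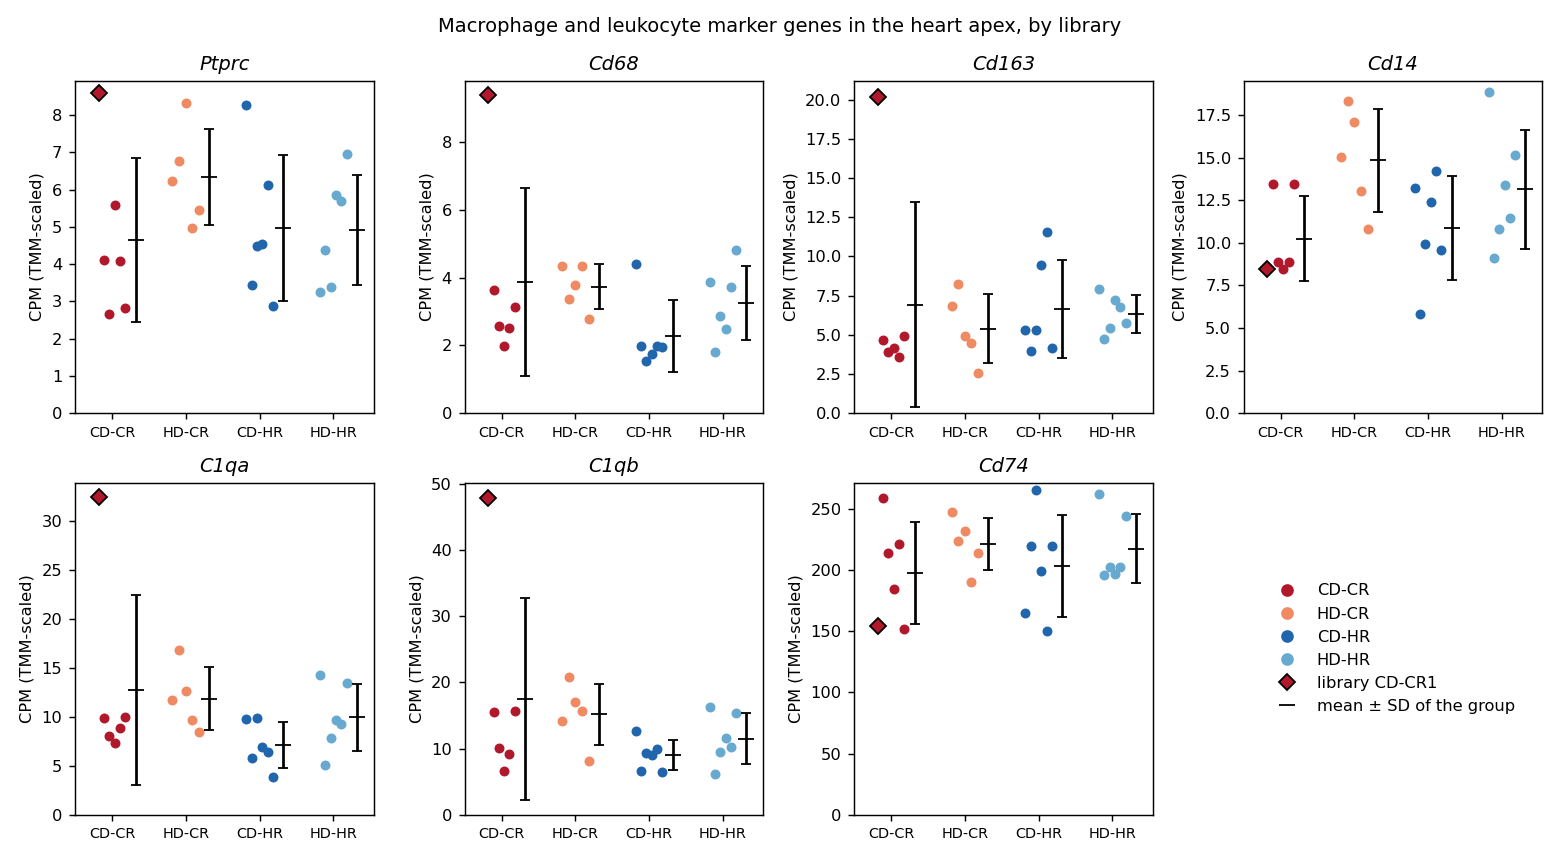
Level of each marker in each of the 23 hearts, in TMM-scaled CPM on axes that start at 0, with 1 point per library and the mean ± SD of the group beside it. The diamond is CD-CR1, which lies above all other libraries for Ptprc, Cd68, Cd163, C1qa and C1qb (47.9 CPM for C1qb, against at most 20.8 CPM elsewhere) and among the lowest for Cd14 and Cd74.

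Ptprc (ENSRNOG00000000655), the pan-leukocyte gene, ran from 2.66 to 8.61 CPM in CD-CR (median 4.09). The 5 HD-CR hearts had 6.22, 6.76, 8.31, 4.97 and 5.46 CPM. CD-HR ran from 2.88 to 8.27 CPM (median 4.52), and HD-HR from 3.26 to 6.95 CPM (median 5.03). The lowest HD-CR heart lay near the medians of the other groups, and all 4 groups overlapped. Group means were highest in HD-CR (6.34 ± 1.30 CPM, SD, n = 5), then CD-HR (4.96 ± 1.96), HD-HR (4.92 ± 1.48) and CD-CR (4.65 ± 2.21, n = 6 each). The gap between HD-CR and CD-HR, 1.38 CPM, exceeded the SD of HD-CR but not that of CD-HR, and the other gaps were smaller than both SDs. Without CD-CR1, which had the highest value of all, CD-CR averaged 3.85 ± 1.18 CPM (n = 5).

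Cd68 (ENSRNOG00000037563), the lysosomal macrophage glycoprotein, was the scarcest of the 7 in reads, with 12 to 107 counts per library, so its values carry the largest counting error. It ran from 1.97 to 9.40 CPM in CD-CR (median 2.86). The HD-CR hearts had 4.35, 3.38, 3.79, 4.35 and 2.79 CPM. In CD-HR it ran from 1.53 to 4.41 CPM (median 1.97), and in HD-HR from 1.80 to 4.83 CPM (median 3.30). Of the CD-HR hearts, 5 lay at or under 1.99 CPM and CD-HR1 lay apart at 4.41. Means were 3.87 ± 2.77 CPM in CD-CR, 3.73 ± 0.668 in HD-CR, 2.27 ± 1.06 in CD-HR and 3.26 ± 1.09 in HD-HR. The first place of CD-CR rested on CD-CR1 (9.40 CPM from 107 counts): without it, CD-CR averaged 2.77 ± 0.634 CPM (n = 5) and lay below HD-CR and HD-HR.

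Cd163 (ENSRNOG00000010253), the scavenger receptor, had the largest coefficient of variation within a group, 94.5% in CD-CR. There CD-CR1 held 20.2 CPM (230 counts), while the other 5 hearts lay between 3.60 and 4.93 CPM. HD-CR had 6.84, 8.24, 4.90, 4.45 and 2.56 CPM. CD-HR ran from 3.98 to 11.6 CPM (median 5.32) and HD-HR from 4.72 to 7.94 CPM (median 6.27). The 5 CD-CR hearts other than CD-CR1 lay at the low end of the other groups, averaging 4.25 ± 0.546 CPM, while all 6 averaged 6.91 ± 6.53 CPM. The means of HD-CR (5.40 ± 2.20), CD-HR (6.64 ± 3.14) and HD-HR (6.31 ± 1.20) lay between these 2 CD-CR means. The highest CD-HR value was that of CD-HR5 (70 counts), which had the fewest counts of all libraries and the most non-unique alignments, 10.7 per counted read. Whether the alignments bear on its Cd163 level was not tested.

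Cd14 (ENSRNOG00000017819), the lipopolysaccharide co-receptor, did not follow the other macrophage genes in CD-CR1, where it stood at 8.43 CPM, rank 22 of 23. In CD-CR it ran from 8.43 to 13.5 CPM (median 8.86). HD-CR hearts had 15.02, 18.3, 17.1, 13.05 and 10.8 CPM. CD-HR ran from 5.84 to 14.2 CPM (median 11.2), and HD-HR from 9.10 to 18.8 CPM (median 12.4). Of 5 HD-CR hearts, 3 exceeded the highest CD-CR and CD-HR hearts, and the groups overlapped below that. The means stood in the order HD-CR (14.8 ± 3.02 CPM), HD-HR (13.1 ± 3.50), CD-HR (10.9 ± 3.07) and CD-CR (10.2 ± 2.48).

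C1qa (ENSRNOG00000012807), a C1q chain, ran from 7.35 to 32.4 CPM in CD-CR (median 9.40). HD-CR hearts had 11.7, 16.8, 12.7, 9.63 and 8.48 CPM. CD-HR ran from 3.81 to 9.92 CPM (median 6.68) and HD-HR from 5.06 to 14.3 CPM (median 9.49). CD-HR was the lowest group, and its highest heart lay below the highest heart of each other group. Means were 12.8 ± 9.69 CPM in CD-CR, 11.9 ± 3.22 in HD-CR, 7.11 ± 2.36 in CD-HR and 9.93 ± 3.46 in HD-HR. Without CD-CR1 (32.4 CPM from 369 counts) CD-CR averaged 8.82 ± 1.16 CPM (n = 5).

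C1qb (ENSRNOG00000012804), another chain of C1q, ran from 6.58 to 47.9 CPM in CD-CR (median 12.8). HD-CR hearts had 14.2, 20.8, 17.1, 15.6 and 8.13 CPM. CD-HR ran from 6.46 to 12.7 CPM (median 9.22) and HD-HR from 6.09 to 16.3 CPM (median 10.9). In 4 of 5 HD-CR hearts C1qb lay above the highest CD-HR heart, and all groups overlapped. Means were 17.5 ± 15.3 CPM in CD-CR, 15.2 ± 4.63 in HD-CR, 9.02 ± 2.31 in CD-HR and 11.5 ± 3.83 in HD-HR. Without CD-CR1 (545 counts) CD-CR averaged 11.4 ± 4.05 CPM (n = 5), under the HD-CR mean.

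Cd74 (ENSRNOG00000018735), the MHC class II invariant chain, varied least for its mean over all 23 hearts. It ran from 151.6 to 259.2 CPM in CD-CR (median 199.6), from 190.6 to 247.9 in HD-CR (median 223.5), from 150.3 to 265.7 in CD-HR (median 209.5) and from 196.4 to 262.3 in HD-HR (median 202.8). The 4 ranges overlapped. With a CKD donor kidney 5 of 12 hearts, CD-CR1 and CD-HR5 among them, lay below every heart with a healthy donor kidney. The same count was 5 for Cd14 and 0 to 3 for the other genes, and it was not computed over all genes. Between donors, averaged over recipients, the log2 fold change of Cd74 was -0.13 (edgeR, adjusted p = 0.619). Over all 23 hearts the coefficient of variation of Cd74 was 16.3%, against 27.7% for Cd14 and 34.6% for Ptprc. Cd68, C1qa, Cd163 and C1qb had 50.9 to 64.7%. These values include CD-CR1 and were not computed without it. In each of HD-CR, CD-HR and HD-HR, the groups that do not hold CD-CR1, Cd74 was also lowest. In HD-CR it had 9.62%, the other markers 17.9 to 40.8%. In CD-HR it had 20.5%, the others 25.6 to 47.2%. In HD-HR the others had 19.1 to 34.8%. Cd74 had 908 to 2879 counts and Cd68 12 to 107, and the part of counting error was not tested. With the groups of each gene ordered by mean, the gap between neighbours was under the larger of their 2 SDs in 21 of 21 neighbouring pairs, and under both SDs in 18, the exceptions being 1 pair each of Ptprc, C1qa and C1qb.

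Whether CKD of the recipient was accompanied by other levels of these genes in the heart was asked first by averaging over both kinds of donor. C1qb averaged 16.4 ± 11.3 CPM in CKD recipients (n = 11) and 10.3 ± 3.28 CPM in healthy recipients (n = 12). C1qa averaged 12.3 ± 7.16 CPM in CKD recipients and 8.52 ± 3.19 CPM in healthy recipients, and Cd68 3.81 ± 2.00 CPM in CKD recipients and 2.77 ± 1.15 CPM in healthy recipients. Without CD-CR1 the CKD recipients (n = 10) averaged 13.3 ± 4.55 CPM for C1qb, 10.3 ± 2.79 CPM for C1qa and 3.25 ± 0.797 CPM for Cd68. The medians differed less for C1qa (9.92 CPM in CKD recipients, 8.56 CPM in healthy recipients) than the means did. For Cd68 they did not (3.38 CPM in CKD recipients, 2.23 CPM in healthy recipients). For C1qb the medians were 15.5 CPM in CKD recipients and 9.70 CPM in healthy recipients, a gap only slightly smaller than that of the means. The means of the other 4 genes lay closer together: Cd163 at 6.22 CPM in CKD recipients (4.83 CPM without CD-CR1) and 6.47 CPM in healthy recipients, Cd14 at 12.3 CPM in CKD recipients and 12 CPM in healthy recipients, Ptprc at 5.42 CPM in CKD and 4.94 CPM in healthy recipients, and Cd74 at 208.5 CPM in CKD and 210.4 CPM in healthy recipients.

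In edgeR 0 of the 7 genes passed at an adjusted p under 0.05, while 12.8% of all 11568 genes did. At an unadjusted p under 0.05 there were 2 members, C1qa and C1qb, both higher in CKD recipients, which is 28.6% of 7. Of all genes 29.5% had such a p in either direction, a share near that of the members, and 13.8% were higher in CKD recipients. The log2 fold change of C1qb was 0.68 ± 0.274 (SE, 95% interval 0.11 to 1.25, adjusted p = 0.102) and that of C1qa 0.55 ± 0.244 (0.04 to 1.06, adjusted p = 0.134). For Cd68 it was 0.48 ± 0.236 (-0.0034 to 0.97, adjusted p = 0.172). The other 4 ranged from -0.06 (Cd163) to 0.14 (Ptprc), with adjusted p of 0.673 to 0.971. The median over the 7 genes was 0.14, beside -0.01 over all genes tested, and 5 of 7 intervals lay within a 2-fold change in either direction. For C1qb the interval still held a 2.38-fold difference.

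The recipient comparison of the C1q genes depended on the fit. DESeq2 called 1 of the 7, C1qb (log2 fold change 0.68, adjusted p = 0.0435), beside 15.7% of all genes, and limma-voom called 0 (C1qb at 0.55, adjusted p = 0.142). With a covariate for the share of counts in the top 10 genes edgeR called 2, C1qa (0.62, adjusted p = 0.0186) and C1qb (0.72, adjusted p = 0.0263), beside 13.2% of all genes. Without CD-CR1 the values came to 0.38 for C1qb (adjusted p = 0.172), 0.29 for C1qa (adjusted p = 0.263) and 0.25 for Cd68 (adjusted p = 0.413), and Cd163 came to -0.41 (adjusted p = 0.154). With the animal-name prefix in the fit, C1qb came to -0.24, Cd68 to -0.04 and C1qa to 0.04, with adjusted p of 0.837 to 0.973. The drop was not particular to these genes: 6 of all 11568 genes passed in that fit, against 1483 without the prefix. Only prefix 13 holds both kinds of recipient, so the 2 CKD recipients there carry that comparison. Cd163 had the largest value of the 7 in that fit, -1.08 (unadjusted p = 0.0681, adjusted p = 0.302). Among libraries of prefix 13 alone the values were -0.21 for C1qb, -0.02 for Cd68, 0.07 for C1qa and -1.05 for Cd163 (unadjusted p = 0.011, adjusted p = 0.161). After adjustment 0 of all genes passed in those libraries, and the share at an unadjusted p under 0.05 was not computed. There the CKD recipients were 2: CD-CR5 with 9.24 CPM of C1qb and HD-CR5 with 8.13 CPM, both inside the range of the healthy recipients (6.09 to 16.3 CPM). Prefix 12 holds no healthy recipient, so for those 9 hearts prefix and recipient disease cannot be told apart. Non-unique alignments per counted read also moved with the groups, averaging 0.29 ± 0.72 on a log2 scale in CKD recipients and 1.24 ± 0.935 in healthy recipients. With that measure as a covariate C1qb stood at 0.87 (adjusted p = 0.0739).

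**Figure D2:**
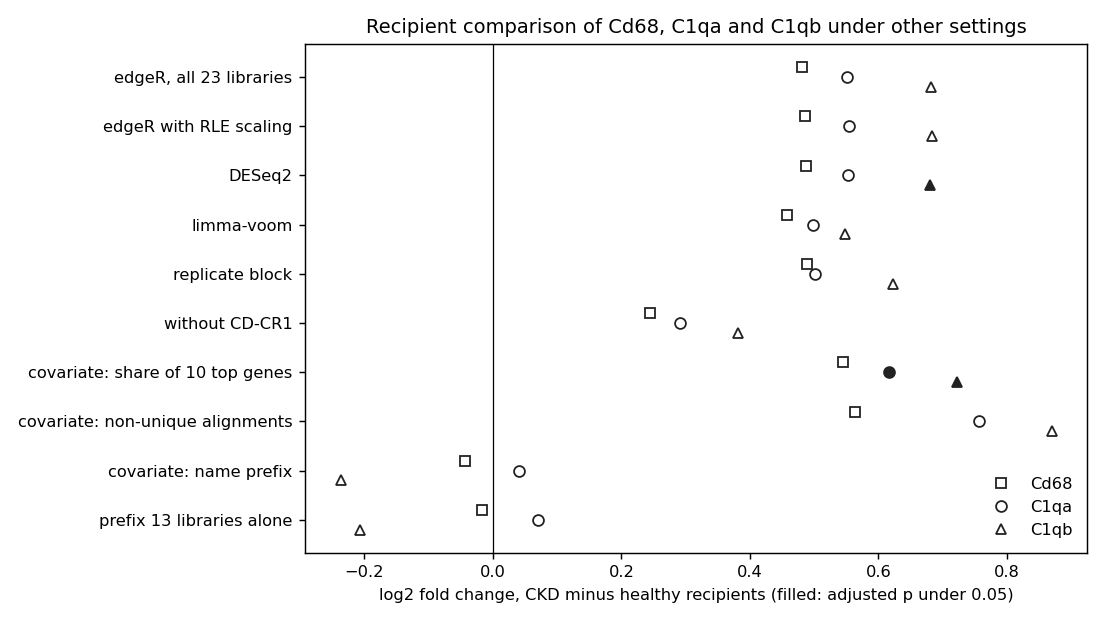
Log2 fold change of Cd68, C1qa and C1qb between CKD and healthy recipients under each of 10 settings, down the page. Filled symbols have an adjusted p under 0.05. The values shrink without CD-CR1 (0.25 to 0.38) and lie around 0 once the animal-name prefix is in the fit (-0.24 to 0.04). With the prefix the calls over all genes also fell, from 1483 to 6.

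With a CKD donor kidney the recipient comparison, CD-CR against CD-HR, had the largest values. Here 0 of 7 genes passed after adjustment, beside 1.56% of all genes, and 3 (42.9%) had an unadjusted p under 0.05, all higher in CD-CR, beside 17.8% of all genes in either direction and 9.43% higher. These were C1qb (0.96 ± 0.383, SE, adjusted p = 0.195), C1qa (0.84 ± 0.342, adjusted p = 0.203) and Cd68 (0.77 ± 0.333, adjusted p = 0.227). DESeq2 and limma-voom called 0. All 3 values rested in part on 1 heart: without CD-CR1 they were 0.34, 0.30 and 0.28, with adjusted p of 0.597 to 0.695, and Cd163 came to -0.63, against 0.09 with it. With the animal-name prefix in the fit they came to 0.03 for C1qb, 0.32 for C1qa and 0.23 for Cd68, and Cd163 to -0.94, with adjusted p of 0.529 to 0.986. In this comparison 0 of all genes passed with the prefix, against 181 without it. With a healthy donor kidney, HD-CR against HD-HR, 0 of 7 passed after adjustment, beside 0.614% of all genes, and 0 at an unadjusted p under 0.05, beside 18.1%. C1qb stood at 0.40 ± 0.392 and Ptprc at 0.37 ± 0.276, the lowest adjusted p being 0.494. With the prefix in the fit C1qb turned to -0.50 and Ptprc came to 0.16, while Cd68 (-0.32), C1qa (-0.24) and Cd14 (-0.15) also changed sign and Cd163 stood at -1.22, with adjusted p of 0.302 to 0.868. Between HD-CR and HD-HR 3 of all genes passed with the prefix, against 71 without it. DESeq2 and limma-voom called 0 there too.

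**Figure D3:**
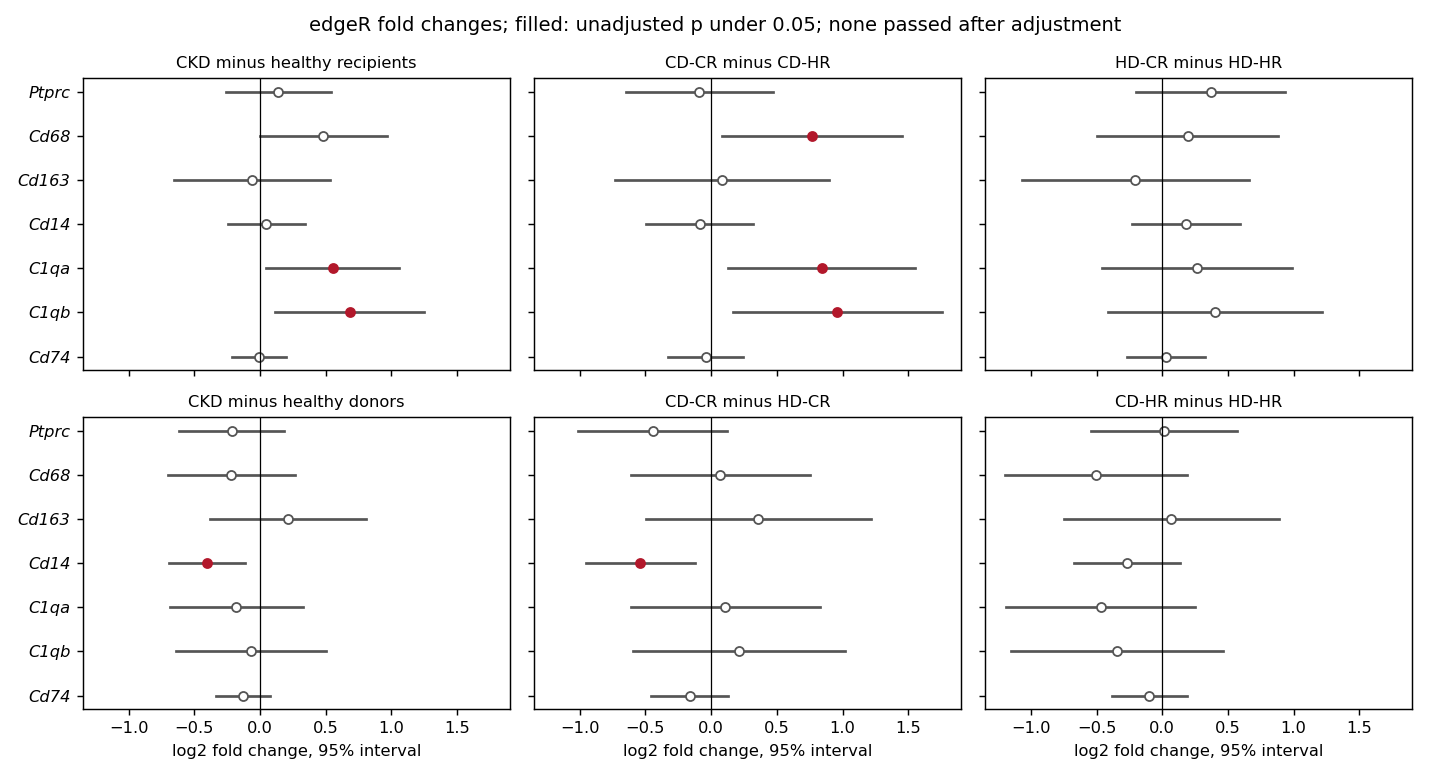
Log2 fold change with its 95% interval for each marker in 6 comparisons, CKD minus healthy, of recipients (upper panels) and donors (lower panels). Filled points have an unadjusted p under 0.05 (C1qa and C1qb in the averaged recipient comparison, these and Cd68 with CKD donors, Cd14 in 2 donor comparisons), and none has an adjusted p under 0.05.

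Whether the disease of the grafted kidney was accompanied by other levels in the recipient's heart was asked by comparing donors. Averaged over recipients, Cd14 stood at 10.6 ± 2.68 CPM with CKD donor kidneys (n = 12) and at 13.9 ± 3.25 CPM with healthy donor kidneys (n = 11). Its log2 fold change was -0.40 ± 0.141 (SE, 95% interval -0.69 to -0.11, unadjusted p = 0.00816, adjusted p = 0.189). Of the 7 genes, 0 passed after adjustment, as of all genes (0%), and Cd14 alone had an unadjusted p under 0.05 (1 of 7, lower with CKD donors), beside 12.8% of all genes in either direction and 6% lower. DESeq2 and limma-voom called 0 of the 7. The Cd14 value held its sign without any single library (-0.45 to -0.34) and was -0.38 without CD-CR1. The other genes ranged from -0.22 (Cd68 and Ptprc) to 0.21 (Cd163), with a median over the 7 of -0.18 beside 0.01 over all genes. All 7 intervals lay within a 2-fold change. Without CD-CR1, Cd163 came to -0.14, C1qa to -0.45 and Cd68 to -0.47, with adjusted p of 0.207 to 0.769.

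Among CKD recipients, CD-CR against HD-CR, 0 of 7 genes passed after adjustment, beside 0.0259% of all genes. Cd14 had an unadjusted p under 0.05 (-0.54 ± 0.203, adjusted p = 0.487), beside 8.31% of all genes in either direction and 4.1% lower. The signs of Cd68, Cd163, C1qa and C1qb in this comparison rested on CD-CR1: with it they were 0.07, 0.36, 0.11 and 0.21, and without it -0.44, -0.36, -0.44 and -0.41, with adjusted p of 0.636 to 0.729. Among healthy recipients, CD-HR against HD-HR, 0 of 7 passed after adjustment, beside 0% of all genes, and 0 at an unadjusted p under 0.05, beside 7.6%. There the values ran from -0.51 ± 0.337 (Cd68) to 0.07 ± 0.395 (Cd163), and the lowest adjusted p was 0.781. DESeq2 and limma-voom called 0 in both comparisons.

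The remaining contrasts put both diseases against neither, crossed them, and tested their interaction. For CD-CR against HD-HR 0 of 7 passed (3.65% of all genes), and 0 had an unadjusted p under 0.05 (18.6% of all genes). C1qb stood at 0.61 ± 0.375, with 0.01 without CD-CR1 and -0.32 with the prefix in the fit. Without CD-CR1 Cd163 came to -0.55 (adjusted p = 0.315), in a fit where 258 of all genes passed. With the prefix Cd14 came to -0.69 (adjusted p = 0.365), and there 0 of all genes passed. For HD-CR against CD-HR 0 of 7 passed (5.31% of all genes), and Cd14 had an unadjusted p under 0.05 (0.45 ± 0.204, adjusted p = 0.175), beside 24% of all genes in either direction and 11.1% higher. C1qb stood at 0.75, C1qa at 0.73 and Cd68 at 0.70 in that contrast, with adjusted p of 0.213 to 0.255. With the prefix in the fit C1qb turned to -0.16, while C1qa came to 0.23, Cd68 to 0.19, Cd14 to 0.12 (unadjusted p = 0.692) and Cd163 to -1.28 (unadjusted p = 0.0523). In this contrast 269 of all genes passed with the prefix, against 614 without it. With a covariate for the share of counts in the top 10 genes, C1qa passed there (0.87, adjusted p = 0.0374, 1 of 7 beside 5.53% of all genes), as it did for CD-CR against CD-HR (0.83, adjusted p = 0.04996, 1 of 7 beside 2.89%). The interaction of donor and recipient had 0 of 7 after adjustment (0.00864% of all genes) and 0 at an unadjusted p under 0.05 (3.26% of all genes), with wide intervals such as -0.58 to 1.70 for C1qb (0.56). Without CD-CR1 the interaction of C1qb was -0.0760. That of Ptprc was -0.46 with CD-CR1 and -0.76 without it (unadjusted p = 0.0386, adjusted p = 0.998). After adjustment 1 of all genes passed without CD-CR1, and the share at an unadjusted p under 0.05 was not computed. In these contrasts, too, DESeq2 and limma-voom called 0 of the 7. The contrasts share groups, so their values are not independent of each other.

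Across hearts, whatever their group, the C1q chains moved together. Log2 CPM of C1qa and C1qb correlated with Pearson's r = 0.927 over 23 libraries (permutation p = 1e-05, the smallest that 100000 permutations can give, adjusted p = 7e-05 over 21 pairs of genes) and Spearman's rho = 0.897 (adjusted p = 0.00021). Without the 2 libraries farthest from the median of C1qa, r was 0.879, and without CD-CR1 it was 0.876. Within prefix 12 (9 hearts) it was 0.943, within prefix 13 (14 hearts) 0.899, and for deviations from the group means 0.914. In counts, C1qb stood at 0.896 to 1.70 times C1qa in the 23 libraries, and in HD-HR at 1.17 ± 0.0424 times (SD, n = 6).

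Cd68 followed both chains. Its r with C1qb was 0.863 (rho = 0.789, permutation adjusted p = 7e-05 for r and 0.00021 for rho), and 0.776 without CD-CR1. Its r with C1qa was 0.814 (rho = 0.743, permutation adjusted p = 7e-05 for r and 0.0007 for rho), and 0.701 without CD-CR1. Without the 2 farthest libraries the values were 0.804 with C1qb and 0.791 with C1qa. Within prefix 12 they were 0.925 with C1qb and 0.869 with C1qa, and within prefix 13 0.745 with C1qb and 0.679 with C1qa. By Pearson's r these 3 pairs had an adjusted p under 0.05 in every setting where a p was computed, each library left out included. No p was computed without the 2 farthest libraries. By Spearman's rho 2 of all 21 pairs passed within prefix 12, so not all of these 3 did.

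Of the 21 pairs, 7 passed by Pearson's r and 8 by Spearman's rho. The other 4 that passed by r did not pass in every setting. Cd163 with C1qb had r = 0.627 with it and 0.358 without it, and Cd163 with C1qa 0.554 with it and 0.258 without it. Ptprc with C1qa had 0.541 with it and 0.438 without it, and Ptprc with Cd68 0.494 with it and 0.377 without it. None of these 4 passed without CD-CR1, the permutation adjusted p being 0.0959 to 0.344. Other settings moved them too. Of all 21 pairs, 7 passed without CD-CR1, but 4 without HD-CR2 and 4 without CD-HR6. With a prior count of 0.5, Ptprc with Cd68 had a permutation adjusted p of 0.0508.

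Cd14 behaved the other way. With C1qb its r was 0.453 over 23 libraries (rho = 0.629, permutation adjusted p = 0.0696 for r and 0.00919 for rho) and 0.851 without CD-CR1 (permutation adjusted p = 0.000105). With C1qa its r was 0.390 over 23 libraries and 0.726 without CD-CR1. Within prefix 12, which holds CD-CR1, r of Cd14 with C1qb was 0.129, and within prefix 13 it was 0.832. In CD-CR1 the count of Cd14 was 0.176 times that of C1qb, whereas the median over all libraries was 1.05 and the highest 1.49. For Cd74 with the other 6 genes r lay between -0.343 (Cd163) and 0.170 (Cd14), and none passed.

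**Figure D4:**
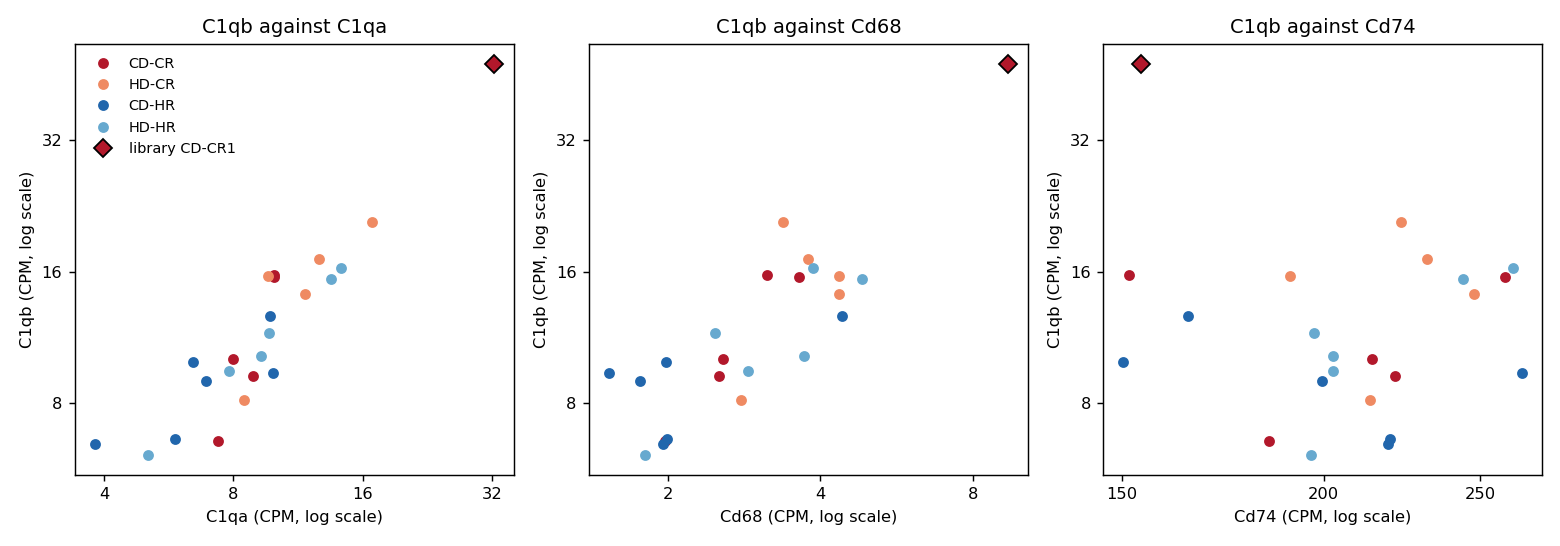
C1qb against C1qa, Cd68 and Cd74, 1 point per heart, in CPM on log axes. C1qb follows C1qa (r = 0.927) and Cd68 (r = 0.863) while its r with Cd74 is -0.133, and CD-CR1 (diamond) lies at the upper end for C1qa and Cd68.

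**Figure D5:**
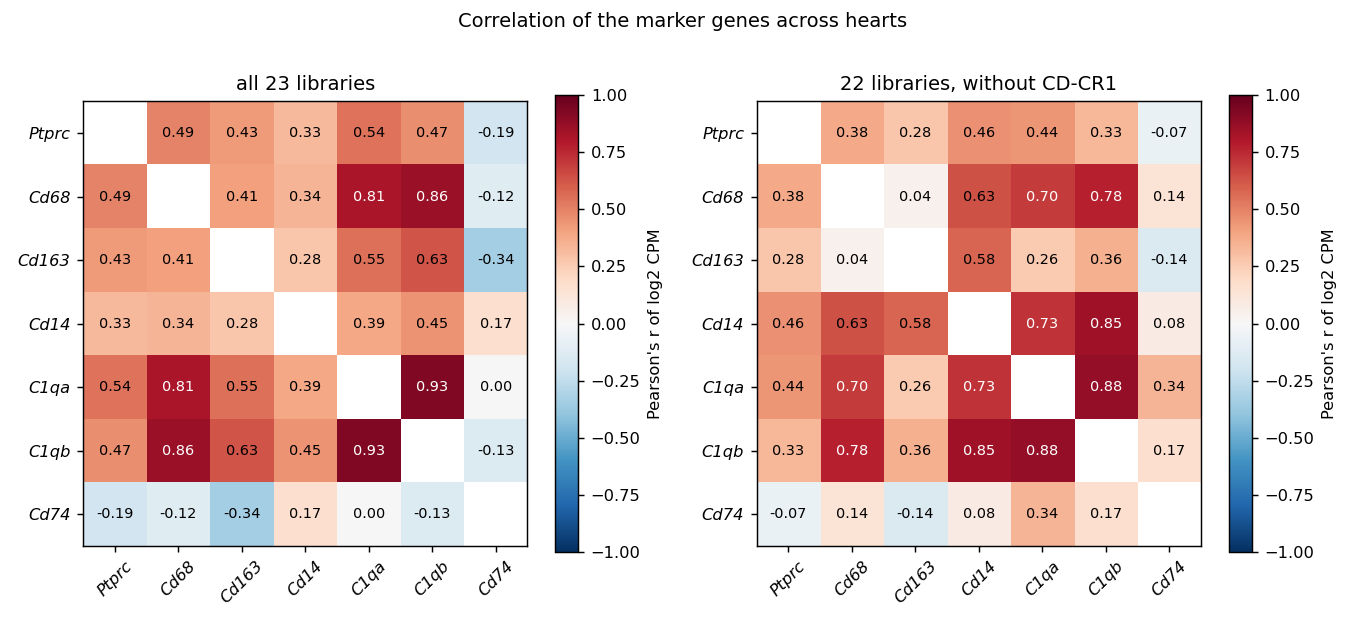
Pearson's r of log2 CPM for the 21 pairs of markers, over all 23 libraries (left) and the 22 without CD-CR1 (right). The block of C1qa, C1qb and Cd68 keeps r of 0.70 or more in both, the pairs of Cd14 with these genes are higher on the right, and Cd163 with C1qa and C1qb is lower there.

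CD-CR1 itself had 3.32 times the median of the other 22 libraries for Cd68, 3.94 times for Cd163, 3.43 times for C1qa and 4.70 times for C1qb, against 1.81 times for Ptprc, 0.663 times for Cd14 and 0.720 times for Cd74. Ptprc, like these 4 genes, was at its highest of all 23 libraries in this heart, while the lipopolysaccharide co-receptor and the MHC class II invariant chain were near the low end. The summed level of Cd68, Cd163, C1qa and C1qb was 109.9 CPM in CD-CR1, and the next highest library held 49.2 CPM. That library, HD-CR2, had the second-lowest share of counts in the 10 most abundant genes (51.4%) and ranked second for Cd14, C1qa and C1qb. The part of that share in these levels was not tested.

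Among 11025 other genes averaging 1 CPM or more, 2 were most like the mean of the 7 markers' standardised log2 CPM over the 23 libraries. ENSRNOG00000012749 had r = 0.893 and rho = 0.926, and r = 0.870 without CD-CR1. It stood at 28.5 CPM in CD-CR1 and at 3.45 to 13.8 CPM in the other 22. ENSRNOG00000032708 had r = 0.862 and rho = 0.819, and r = 0.833 without CD-CR1. Both were picked for this likeness, so the values are a description.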

How the data were processed

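Polyadenylated RNA of 23 heart apexes was made into directional libraries, per the labels' protocols. The deposited values are raw read counts per gene, 1 file per library, made by the authors with STAR 2.4.2a, Picard and HTSeq 0.6.1p1 on Rnor_5.0, per the submitters' processing notes. No source used here gives the annotation release or strand setting, so a marker's reads may include those of an overlapping or antisense gene. The summary lines of the files entered neither library sizes nor tests (10.6 to 21.5% of reads in no feature, at most 1.97% ambiguous). The files pair no identifier with a name, and the RefSeq table (GRCr8) held 0 Ensembl identifiers, so the 7 names are those the genes were chosen by, and lists by symbol were not tested.

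Groups came from the sample titles. Low counts were removed with filterByExpr (4 groups), and the rest were scaled by TMM and tested in 1 fit of all 23 libraries with edgeR 4.0.16 in R 4.3.3 (estimateDisp, robust glmQLFit, glmQLFTest), with Benjamini-Hochberg adjustment over 11568 genes and a threshold of 0.05. Every adjusted p of a fold change is from this test unless another tool is named (DESeq2 1.42.0, limma 3.58.1 with voom, both with the same adjustment). Correlations used log2 CPM with a prior count of 2 and two-sided permutation tests with 100000 draws, adjusted over 21 pairs. A library stood apart when its median r within its group lay more than 3 scaled MADs under the median of all libraries (r under 0.945). The code was tested on simulated counts. The members and lists were chosen with earlier results of these data known.

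Library totals ran from 7391929 to 12444980 counts in genes. Counting error understates the error of 1 library, since no molecular identifiers are named. The p-values of fold changes set a difference against the spread between these hearts. Of 55 pairs of the same group, none agreed within sampling noise (lowest chi-square per degree of freedom 8.38, over genes with 10 counts or more). All 7 markers are named, and of other genes the 2 most like them.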

Additional observations from a re-analysis of the deposited data

Results flagged for a closer look

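In CD-CR, CD-CR1 lay far above the other 5 hearts for 4 of the 7 genes: 9.40 CPM of Cd68 with the next heart at 3.63, 20.2 CPM of Cd163 with the next at 4.93, 32.4 CPM of C1qa with the next at 9.96, and 47.9 CPM of C1qb with the next at 15.7. In CD-HR, CD-HR1 held 4.41 CPM of Cd68 with the next heart at 1.99. Each gap took up more of its group's range than Dixon's 95% critical value allows. Of 28 groups examined (7 genes in 4 groups), chance alone is expected to mark about 1 in 20, and the 4 in CD-CR1 are 1 library, not independent events. For CD-CR1, the share of counts in the 10 most abundant genes (48.8%) was the lowest of all libraries and its TMM factor (1.46) the highest. Their part in its levels was not tested.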

How the results depend on the processing

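The count of markers past the threshold was 0 in 299 of 304 settings over the 9 comparisons. Most of these settings were refits with 1 library left out, which share nearly all hearts. The exceptions were the averaged recipient comparison with DESeq2 (1, C1qb), with a covariate for the share of counts in the top 10 genes (2) and in the range of 0 to 1 when each library was left out (1 without CD-CR4, C1qb at 0.77, adjusted p = 0.0482), and, with the same covariate, CD-CR against CD-HR (1) and HD-CR against CD-HR (1). With each library left out, 860 to 1742 of all genes passed in the averaged recipient comparison. The shares of all genes for the other exceptions are given above. In the other 8 comparisons leaving out each library gave 0 every time. The cause was not tested. With replicate number as a replicate block 0 were called in every comparison (recipient C1qb at 0.62, adjusted p = 0.101), and the numbers did not pair the hearts: over 33 same-numbered pairs the deviations from group means correlated from -0.321 to 0.364, and 6 of 23 libraries correlated best with their own number. Of 2128 member fold changes under other settings, 122 had the other sign and 6 passed, none both. In the averaged recipient comparison the sign changed with the prefix as a covariate for Ptprc (-0.0699), Cd68 (-0.0442), Cd14 (-0.29), C1qb (-0.24) and Cd74 (0.0533), among prefix 13 alone for Ptprc (-0.0388), Cd68 (-0.0174), Cd14 (-0.26), C1qb (-0.21) and Cd74 (0.0784), with non-unique alignments as a covariate for Cd163 (0.36) and without CD-CR1 for Cd74 (0.0347). In the averaged donor comparison it changed without CD-CR1 for Cd163 (-0.14). Leaving out each library in turn gave recipient ranges of -0.0542 to 0.0378 for Cd74, -0.41 to 0.0402 for Cd163 and -0.0131 to 0.11 for Cd14, and donor ranges of -0.14 to 0.31 for Cd163 and -0.38 to 0.0162 for C1qb. Correlated pairs past the threshold numbered 11 for deviations from group means, 6 within prefix 12, 4 within prefix 13, 6 with a prior count of 0.5 and 4 (without HD-CR2 or CD-HR6) to 9 with each library left out, beside 7. RLE scaling shifted the median of all genes by at most 0.01 and called 0. Without the filter on low counts, or with 2 groups alone in the fit, 0 were called. At 12 to 57 counts per library outside CD-CR1, depth limits Cd68 most.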
